A study of Mus musculus with 2 samples.

Results

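The 7 genes described here encode the proteins with which an enterocyte builds and exports a chylomicron: the apolipoprotein genes Apoa1, Apoa4, Apob, Apoc2 and Apoc3, the lipid transfer gene Mttp and the vesicle coat gene Sar1b. They were taken by symbol from the 55357 genes of the deposited feature tables, and each symbol was found once in both tables. The data were single-cell RNA counts from crypt-enriched small intestinal epithelium of 8 week old male mice, with 1 library per genotype made from pooled animals. The study asked how adiponectin made in the gut epithelium bears on crypt stem cells and their progeny. Mice of both groups carried floxed alleles of the adiponectin gene (Adipfl/fl), and in the second group (Adipfl/flpVilli-CreT) a Cre recombinase under the villin promoter, which is active in intestinal epithelial cells, removed the gene there. The tissue was minced, digested with collagenase and papain, depleted of dead cells on magnetic beads and captured with a droplet 3′ kit that tags each molecule with a unique molecular identifier (UMI). With 1 library per genotype the spread between animals was not measured, so no p-value is given, and every interval below is an exact 95% interval that covers counting error only.

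Dietary fat that enters an enterocyte is re-esterified and loaded onto apolipoprotein B in the endoplasmic reticulum by microsomal triglyceride transfer protein, the product of Mttp. The growing particle takes up apolipoproteins A-IV and A-I, leaves the endoplasmic reticulum in vesicles whose budding is driven by the GTPase SAR1B, and reaches the lymph as a chylomicron. Apolipoproteins C-II and C-III act later, in the circulation, where the former activates lipoprotein lipase and the latter inhibits it. Enterocytes are born at the base of the villus and move to its tip, so position along the villus is also the age of the cell.

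Of 9791 Adipfl/fl and 11838 Adipfl/flpVilli-CreT barcodes, 3069 and 5555 had more than 500 detected genes and under 25% mitochondrial UMIs, the limits given in the methods of the study. These are fewer cells than the study describes, so the cells kept here are not the same set as its cells. With the mitochondrial share taken from the 13 protein-coding genes in place of all mitochondrial genes, 6599 and 8291 barcodes were enterocytes, against the 2064 and 4130 used here. The kept barcodes held 25687687 and 48895126 UMIs, with medians of 4838 and 4749 UMIs per barcode. Adipoq, the floxed gene, had 1 UMI among all Adipfl/fl barcodes and 0 among all Adipfl/flpVilli-CreT barcodes, too few to check the labels. The libraries shared 31 barcode sequences, of which 3 were among the kept cells. Clusters were named from marker genes that included none of the 7 genes, and beside the enterocytes 82 and 217 barcodes were crypt cells (stem and cycling markers), and 365 and 442 were T cells. The distal enterocyte gene Fabp6, a bile acid binding protein, was at 3.43 and 3.20 CPM (UMIs of the gene per 1000000 UMIs of the class) in the enterocytes, and the proximal gene Lct, lactase, at 729 and 606 CPM.

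The enterocytes were ordered along the villus by a score built from 7 tip and 10 bottom landmark genes, none of them described here, and divided at the quintiles of the score into 5 ranges, from range 1 at the bottom end to range 5 at the tip end. The ranges are stretches of a continuous score and not cell types, and 1172 of the 6194 enterocyte barcodes (18.9%) lay within 0.1 of a limit on a score with an SD of 1.32. The median summed UMI count of T cell markers and of stem cell markers was 0 in all 5 ranges. The ranges differed in depth: the median UMI count per barcode went from 17994 in range 1 to 3822 in range 5 in the Adipfl/fl library and from 17976 to 3658 in the Adipfl/flpVilli-CreT library. The median mitochondrial share went from 7.74% to 19.6% and from 6.48% to 19.7%. Levels are therefore given below both as CPM and as mean UMIs per barcode, and the part of depth and mitochondrial share in the profiles was not tested.

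Apoa1, Apoc3 and Apoa4 lie next to each other on mouse chromosome 9, within 14880 bases (GRCm38). Apoa1 occupies chr9:46228580-46230466 and Apoa4 chr9:46240696-46243459, both on the plus strand, and Apoc3 occupies chr9:46232933-46235636 between them on the minus strand. Apob is at chr12:7977648-8016835 (plus), Apoc2 at chr7:19671579-19677941 (minus), Mttp at chr3:138089854-138144968 (minus) and Sar1b at chr11:51763687-51791925 (plus). All 7 are annotated as protein-coding. The reads of Apoc2 may be shared with Gm44805, an annotated gene on the same strand that covers 79.5% of its exonic bases, so its values are uncertain. Apoa4 is overlapped on the opposite strand by Gm47528 and Gm10680, which cover 34.9% and 34.8% of its exonic bases. Mttp is overlapped on the opposite strand by Gm43691 and Trmt10a, which cover 2.13% and 7.36% of its exonic bases.

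The promoters of Apoa1, Apoa4 and Apob are shown because these genes had the largest ratios of the tip end to the bottom end of the villus among those with over 10000 UMIs in range 5 of either library (RefSeq, build GRCm38.p6, plus strand). The windows searched ran from 250 bases before to 50 bases after the RefSeq start, and the stretches before the first annotated exon of each gene are printed 5′ to 3′, at chr9:46228380-46228579, chr9:46240594-46240695 and chr12:7977427-7977647. Capitals mark the matches to CAAAGTNCA, a form of the HNF4 site, to GATAAG, a form of the GATA factor site, read on either strand, and to the TATA box TATAAA.
Apoa1: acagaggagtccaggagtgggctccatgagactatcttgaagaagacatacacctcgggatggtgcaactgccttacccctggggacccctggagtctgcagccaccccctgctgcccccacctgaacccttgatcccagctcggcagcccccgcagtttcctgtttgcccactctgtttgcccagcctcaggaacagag
Apoa4: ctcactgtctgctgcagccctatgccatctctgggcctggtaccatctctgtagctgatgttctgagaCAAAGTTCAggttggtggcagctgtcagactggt
Apob: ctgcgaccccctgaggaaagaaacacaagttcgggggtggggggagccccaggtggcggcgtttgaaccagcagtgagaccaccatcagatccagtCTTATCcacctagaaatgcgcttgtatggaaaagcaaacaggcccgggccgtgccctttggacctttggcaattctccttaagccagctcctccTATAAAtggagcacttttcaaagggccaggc
The Apoa4 window held CAAAGTTCA 182 bases before the RefSeq start, a pattern found in 1.41% of 32851 RefSeq promoter windows. The Apob window held GATAAG on the opposite strand 154 bases before the start, a pattern in 7.44% of windows, and TATAAA 60 bases before it, a pattern in 13.6%. The Apoa1 window held GATAAG on the opposite strand only after the start, and so outside the stretch printed. The Mttp window held ACGTCA, a form of the cAMP response element and of CREB3-type sites found in 7.51% of windows, 29 bases before the start. This window, chr3:138143369-138143668, lies inside the annotated span of Mttp and holds the start of Trmt10a (138143448) on the opposite strand. The match can therefore not be assigned to either gene. None of the motifs searched, which also included a palindromic HNF1 site, was found in the Apoc2 and Sar1b windows. No sequence of the Apoc3 promoter was used here. These matches describe letters in the windows and not bound sites.

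Along the villus the genes fell into 2 patterns on the CPM scale. The 5 apolipoprotein genes were higher at the tip end in both libraries, and Mttp and Sar1b were lower there. In the Adipfl/fl library, all 7 genes passed the expression filter (at least 10 CPM in the higher range and 20 UMIs over both), 5 were at least 1.5-fold higher in range 5 than in range 1 and 2 at least 1.5-fold lower, against 15.8% and 65.1% of the 7611 genes tested. In the Adipfl/flpVilli-CreT library Apoc2 did not pass the filter, and of the other 6 genes 4 were higher and 2 lower by that measure, against 15.9% and 64.5% of 7583 genes. Apoc2 thus passed only through the library in which it was higher. The median log2 ratio of range 5 to range 1 was 2.12 and 2.13 over the members tested, and -1.30 and -1.24 over all genes tested. Together the 7 genes made up 1.45% and 1.30% of the UMIs in range 1 and 8.12% and 7.28% in range 5.

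**Figure D1:**
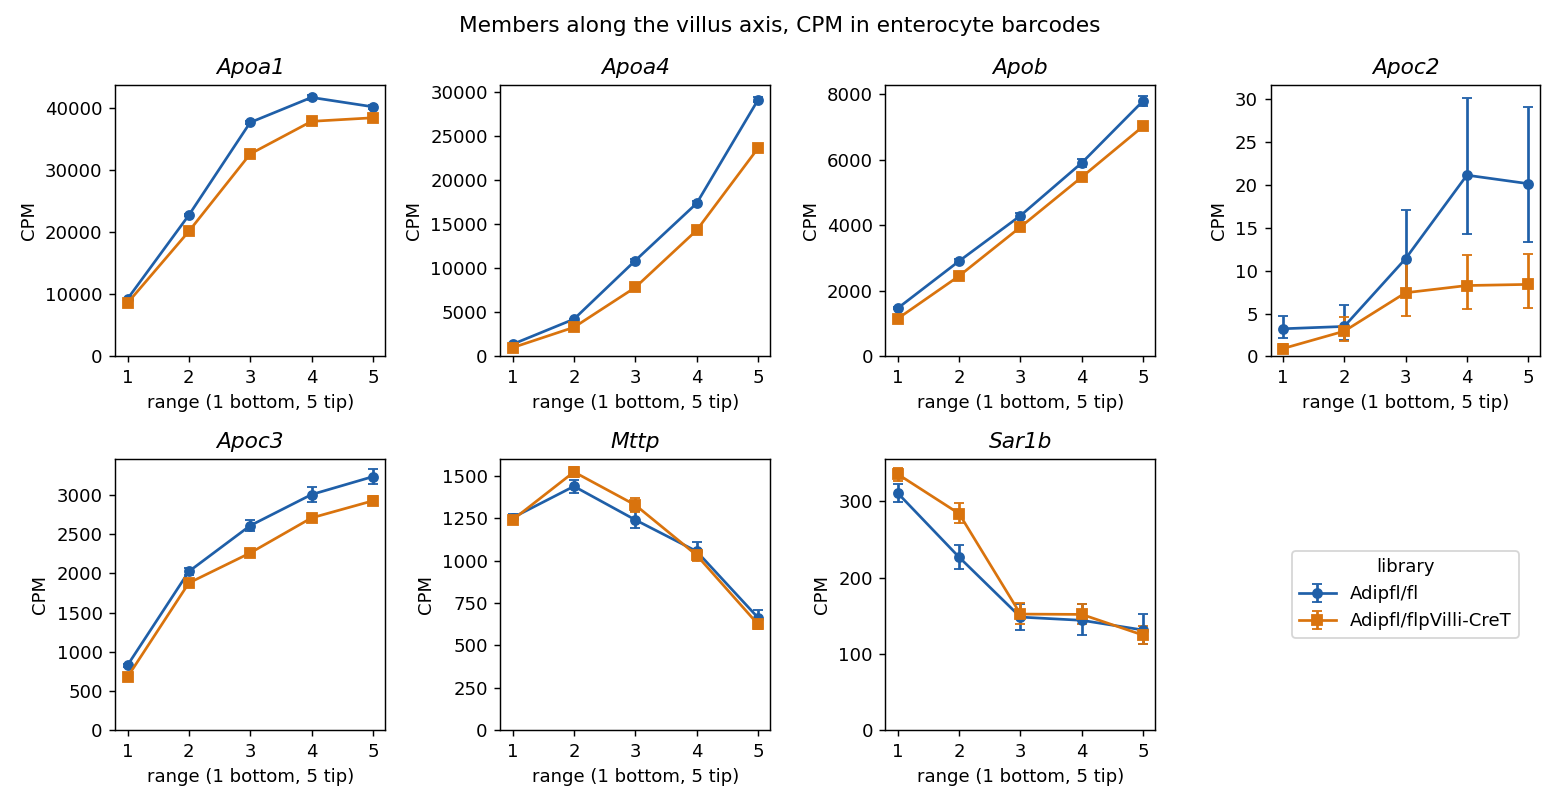
Level of each gene (CPM) in enterocyte barcodes of the 5 villus ranges, from 1 (bottom end) to 5 (tip end), in the Adipfl/fl (blue circles) and Adipfl/flpVilli-CreT (orange squares) libraries. Bars are exact 95% Poisson intervals for counting error. Apoa4 went from 1391 and 1005 CPM in range 1 to 29106 and 23627 CPM in range 5, while Mttp was highest in range 2 and Sar1b in range 1.

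Apoa4, the apolipoprotein added to nascent chylomicrons in the gut, had the largest ratio between the ends of the villus among the 7 genes in both libraries. In the Adipfl/fl library it was at 1391, 4241, 10886, 17374 and 29106 CPM from range 1 to range 5. In the Adipfl/flpVilli-CreT library the levels were 1005, 3314, 7839, 14317 and 23627 CPM. The level thus went up at every step in both libraries, and range 5 was 20.9-fold (20.5 to 21.4) and 23.5-fold (23.1 to 23.9) above range 1. It was the only one of the 6 genes other than Apoc2 whose UMIs per barcode were also more than 1.5-fold higher at the tip end, with 28.1 and 21.2 UMIs per barcode in range 1 and 123 and 96.1 in range 5. On that scale the ratios were 4.38 (4.29 to 4.47) and 4.53 (4.46 to 4.61).

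Apoa1, the main protein of high density lipoprotein and also a chylomicron component, levelled off earlier. Its levels from range 1 to range 5 were 9285, 22792, 37741, 41778 and 40268 CPM in the Adipfl/fl library and 8625, 20186, 32659, 37920 and 38493 CPM in the Adipfl/flpVilli-CreT library. Range 5 was 4.34-fold (4.29 to 4.38) and 4.46-fold (4.43 to 4.50) above range 1, but only 1.07-fold and 1.18-fold above range 3. The mean number of Apoa1 UMIs in a barcode changed little and in the opposite direction, from 187 to 170 and from 182 to 157 UMIs. The ratios of these means were 0.907 (0.897 to 0.917) and 0.861 (0.855 to 0.867). The median went up from 143 to 154 UMIs in the Adipfl/fl library and down from 145.5 to 139 in the Adipfl/flpVilli-CreT library. The direction of the Apoa1 profile therefore depended on the scale and, per barcode in the Adipfl/fl library, on the use of mean or median.

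Apob encodes the structural protein of the particle, of which each particle carries a single copy. Its levels were 1472, 2907, 4291, 5901 and 7787 CPM from range 1 to range 5 in the Adipfl/fl library and 1154, 2454, 3944, 5466 and 7014 CPM in the Adipfl/flpVilli-CreT library. The level went up at each step, to 5.29-fold (5.15 to 5.43) and 6.08-fold (5.97 to 6.19) in range 5. Per barcode the 2 ends were close, with 29.7 and 32.9 UMIs in the Adipfl/fl library and 24.3 and 28.5 UMIs in the Adipfl/flpVilli-CreT library, and range 3 was lowest at 17.7 and 17.0 UMIs.

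Apoc3, the lipase inhibitor gene that lies between Apoa1 and Apoa4, was at 828, 2024, 2608, 3005 and 3233 CPM in the Adipfl/fl library and at 679, 1878, 2260, 2707 and 2925 CPM in the Adipfl/flpVilli-CreT library. The ratios of range 5 to range 1 were 3.90 (3.76 to 4.05) and 4.31 (4.2 to 4.42). As for Apoa1, the direction of the mean per barcode turned, from 16.7 to 13.6 and from 14.3 to 11.9 UMIs. The median Apoc3 count per barcode did not turn and went from 7 to 9 UMIs in both libraries. Apoc2, the lipase activator, was rare: 121 and 120 UMIs over all enterocytes, in 5.67% and 2.81% of the barcodes. Its levels were 3.23, 3.50, 11.4, 21.1 and 20.1 CPM in the Adipfl/fl library and 0.92, 2.94, 7.42, 8.26 and 8.39 CPM in the Adipfl/flpVilli-CreT library. The ratios of the ends, 6.23 (3.54 to 11) and 9.11 (4.83 to 17.8), rest on 13 to 31 UMIs in each range.

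Mttp, the lipid transfer gene, was lower at the tip end by CPM, as were most genes tested (65.1% and 64.5% at least 1.5-fold lower). It was at 1254, 1439, 1241, 1056 and 664 CPM from range 1 to range 5 in the Adipfl/fl library and at 1241, 1524, 1329, 1033 and 625 CPM in the Adipfl/flpVilli-CreT library. The highest level was in range 2 in both libraries, and range 5 was at 0.530 (0.495 to 0.567) and 0.504 (0.482 to 0.526) of range 1. Per barcode it went from 25.3 to 2.80 UMIs and from 26.2 to 2.54 UMIs. Sar1b, the gene of the export GTPase, was at 311, 227, 148, 144 and 131 CPM in the Adipfl/fl library and at 336, 284, 152, 152 and 125 CPM in the Adipfl/flpVilli-CreT library. Most of its difference lay between ranges 1 and 3, and range 5 was at 0.423 (0.362 to 0.491) and 0.371 (0.337 to 0.408) of range 1. Few barcodes of the tip end had a low mitochondrial share: under 10% mitochondrial UMIs, 2 and 13 barcodes remained in range 5 with the limits of the ranges kept, an alternative chosen after the data were seen. Among these the ratio of range 5 to range 1 was 0.715 (0.327 to 1.36) and 0.534 (0.415 to 0.678) for Mttp, and 0.287 (0.00727 to 1.60) and 1.01 (0.710 to 1.39) for Sar1b. Where the ranges were set anew on the 359 and 835 enterocytes clustered under that limit, a setting whose barcodes lie mostly in ranges 1 and 2 as first divided, the new range 5 was above the new range 1 for Mttp (1.77 and 1.56) and Sar1b (1.62 and 1.45). In the same setting the ratio was 12.3 and 10.7 for Apoc3, 13.6 and 12.6 for Apoa4 and 4.59 and 3.95 for Apob, and 1.21 (0.259 to 4.75) and 8.61 (1.72 to 83.2) for Apoc2.

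With every barcode thinned at random to 2000 UMIs, which left out 119 of the 2064 and 212 of the 4130 enterocyte barcodes as too shallow, the CPM profiles were seen in single barcodes. The median Apoa4 count per thinned barcode was 2, 7, 17, 30 and 52 in the Adipfl/fl library and 1, 5, 13, 25.5 and 42 in the Adipfl/flpVilli-CreT library. The median Apoa1 count was 19, 51, 78, 85 and 80, and 17, 43, 70, 76 and 76. Apoa4 thus separated the ends of the villus barcode by barcode: the 10th percentile in range 5 (27 and 23 UMIs) was above the 90th percentile in range 1 (8 and 6 UMIs). The share of thinned barcodes with a UMI of Mttp was 88.0% and 89.0% in range 1 and 67.6% and 66.7% in range 5, and that of Sar1b was 40.7% and 44.1% against 16.7% and 18.3%. In T cells of the same thinned depth the shares were 11.4% and 13.7% for Mttp and 12.5% and 11.7% for Sar1b. The Sar1b share at the tip end was thus only a few points above that in T cells.

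**Figure D2:**
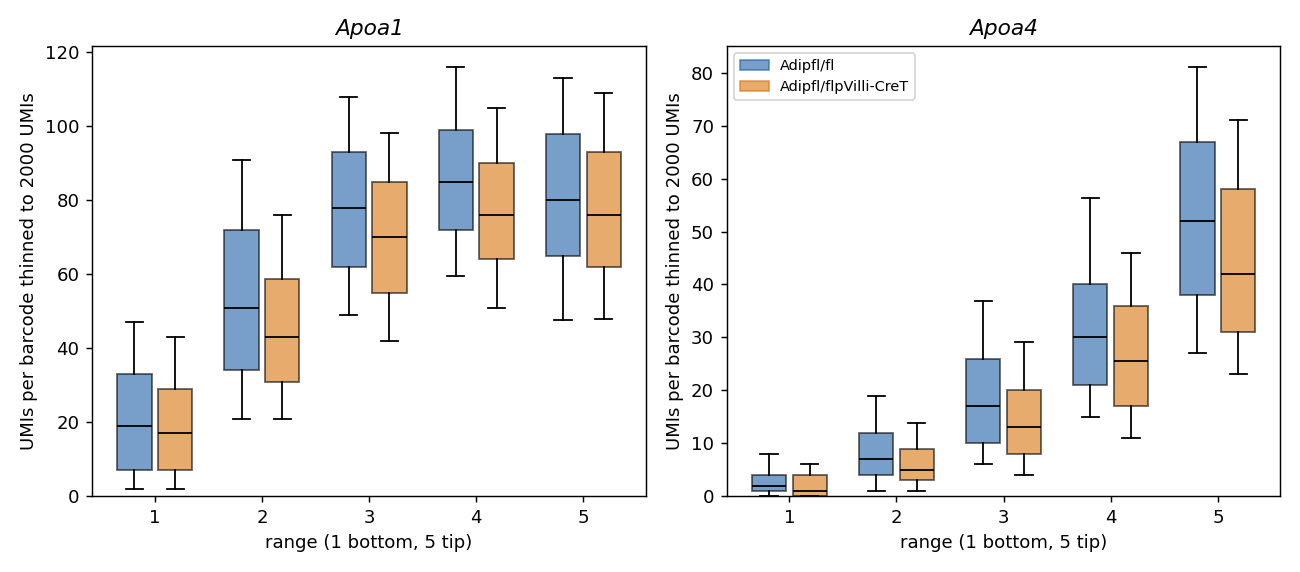
Apoa1 and Apoa4 UMIs per enterocyte barcode thinned to 2000 UMIs, by villus range and library (blue Adipfl/fl, orange Adipfl/flpVilli-CreT). Boxes span the quartiles with the median as a line, and whiskers run from the 10th to the 90th percentile of barcodes. The Apoa4 medians go up at each range, to 52 and 42 UMIs, and the Apoa1 medians level off from range 3 at 70 to 85 UMIs.

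Within a range, thinned barcodes with more Apoa1 tended to have more Apoa4 at the bottom end, and less so at the tip end. Spearman's rho across barcodes was 0.69 (410 barcodes) and 0.60 (810) in range 1 and 0.31 (318) and 0.24 (868) in range 5. The barcodes of a range share their library and still differ in position, and the correlation is given as a description. The mix of the apolipoproteins also changed with position, from 15.0 and 11.7 Apoa4 UMIs per 100 Apoa1 UMIs in range 1 to 72.3 and 61.4 in range 5.

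Between the libraries the 6 genes other than Apoc2 differed little in enterocytes. Taken over all enterocytes, Apoa1 was at 20930 CPM in the Adipfl/fl and 19361 CPM in the Adipfl/flpVilli-CreT library, a ratio of 0.925 (0.921 to 0.929). Apoa4 was at 6774 and 5919 CPM (0.874, 0.867 to 0.880). Apob was at 3016 and 2746 CPM (0.911, 0.901 to 0.92). The 3 genes were thus slightly lower in the Adipfl/flpVilli-CreT library. Apoc3 was at 1684 and 1508 CPM (0.895, 0.883 to 0.909). Mttp was at 1228 and 1214 CPM, with an interval of the ratio that included 1 (0.989, 0.973 to 1.01). Sar1b, at 244 and 267 CPM, was the only 1 of the 7 genes whose interval lay above 1 (1.09, 1.05 to 1.13). None of the 6 genes that passed the expression filter differed by 1.5-fold, against 0.921% of the 7165 genes tested that were higher and 0.712% that were lower in the Adipfl/flpVilli-CreT library by that measure. Apoc2, at 7.15 and 3.49 CPM below the filter, had a ratio of 0.488 (0.376 to 0.634). The median log2 ratio was -0.12 over the 6 genes tested, -0.12 over 8 other enterocyte transcripts (Fabp1, Fabp2, Rbp2, Sis, Alpi, Anpep, Lct and Mep1a) and -0.00 over all genes tested. In sums of this kind a different share of cells at a position and a different level per cell cannot be told apart, so the ranges were also compared one by one.

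Within the ranges Apoa4 was lower in the Adipfl/flpVilli-CreT library in 5 of 5, with ratios of 0.722, 0.781, 0.720, 0.824 and 0.812 from range 1 to range 5. The ratios of Apoa1 lay between 0.865 and 0.956, of Apob between 0.784 and 0.926 and of Apoc3 between 0.819 and 0.928. These 4 genes were thus below 1 in every range by CPM, by amounts whose size relative to the spread between animals is unknown. Lower levels were not particular to them. The median log2 ratio of the 8 other enterocyte transcripts was -0.19, -0.12, -0.05, -0.13 and -0.05 from range 1 to range 5. Over the members tested it was -0.20, -0.14, -0.21, -0.14 and -0.14. Per barcode, Apoa1 (171 and 175 UMIs) and Apoc3 (15.2 and 16.3 UMIs) were higher in the Adipfl/flpVilli-CreT library in range 2. In the other ranges, and for Apoa4 and Apob in every range, the direction per barcode was that by CPM. Mttp lay between 0.941 and 1.07 and Sar1b between 0.949 and 1.25, on both sides of 1. No gene other than Apoc2 reached 1.5-fold in any range, where 0.812%, 2.51%, 6.59%, 6.1% and 7.98% of the genes tested were higher by that measure from range 1 to range 5, and 0.758% and 2.46% were lower in ranges 1 and 2. Apoc2 passed the filter in ranges 3 to 5 through the Adipfl/fl library only, where its ratios were 0.652 (0.352 to 1.21), 0.391 (0.228 to 0.672) and 0.417 (0.242 to 0.722), against 5.35%, 6.6% and 4.82% of genes at least 1.5-fold lower in those ranges.

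**Figure D3:**
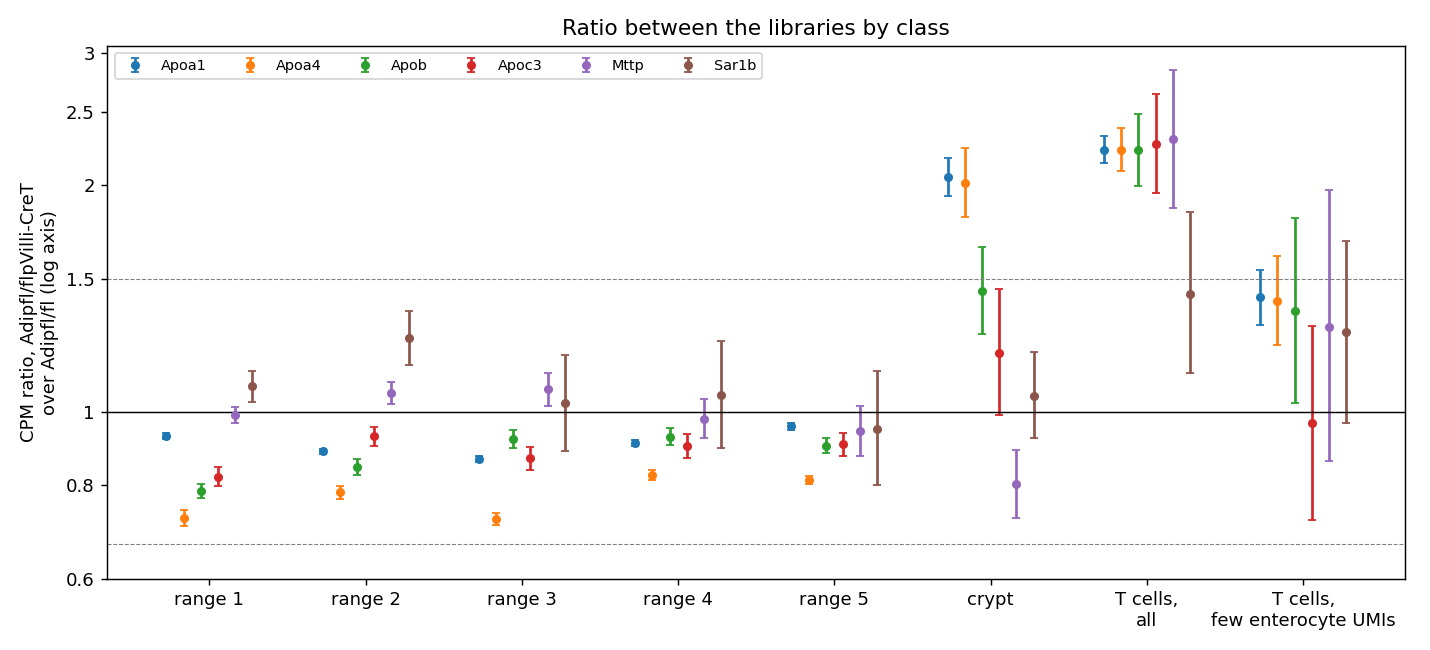
Ratio of the CPM in the Adipfl/flpVilli-CreT library to that in the Adipfl/fl library (log axis) for 6 genes in the 5 villus ranges, in crypt cells, in all T cells and in T cells with at most 10 UMIs of other enterocyte transcripts. Bars are exact 95% intervals for counting error, and dashed lines mark a 1.5-fold difference. Every ratio in the villus ranges lies between 0.720 and 1.25, and 5 of the 6 genes are at 2.22 to 2.30 in all T cells.

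Crypt cells and T cells were among the classes that differed from the enterocytes in this comparison. T cells do not make chylomicrons, and the UMIs of these genes in their barcodes are taken here as the background level of T cell barcodes. Whether such UMIs came from free RNA or from barcodes that hold more than 1 cell was not tested. The difference between the libraries was not shared by all classes. In the other immune cells Apoa1 was at 2503 CPM in the Adipfl/fl and 2423 CPM in the Adipfl/flpVilli-CreT library. The levels were 833 and 1431 CPM in cycling T cells and 4370 and 6549 CPM in goblet cells. Enteroendocrine cells were at 2744 and 5294 CPM and tuft cells at 3632.5 and 4108 CPM. In the T cells Apoa1 was at 1899 CPM in the Adipfl/fl and 4235 CPM in the Adipfl/flpVilli-CreT library, a ratio of 2.23 (2.14 to 2.32). The ratios of Apoa4, Apob, Apoc3 and Mttp were 2.23, 2.22, 2.27 and 2.30, and that of Sar1b was 1.44. Thus 5 of the 6 genes tested were at least 1.5-fold higher in the T cells of the Adipfl/flpVilli-CreT library, and none 1.5-fold lower, against 10.2% and 7.25% of 8713 genes, and all 8 other enterocyte transcripts were too, with ratios of 1.83 to 5.30. Apoc2 had 9 and 1 UMIs in the T cells.

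The difference in T cells lay largely in few barcodes. The median Apoa1 count was 3 UMIs per T cell barcode in both libraries, while the means were 9.12 and 18.9 UMIs. Barcodes with more than 10 UMIs of the 8 other enterocyte transcripts numbered 30 of 365 (8.22%) and 59 of 442 (13.3%), and they held 70.8% and 83.8% of the Apoa1 UMIs of the T cells. Their median total was 6920 and 7381 UMIs, against 4390 and 3839 UMIs in the remaining T cells. Without them, an alternative chosen after the data were seen, Apoa1 was at 2.90 and 3.54 UMIs per T cell barcode and the CPM ratio of the libraries was 1.42 (1.31 to 1.54). The ratios of Apoa4 and Apob were then 1.40 and 1.36, and that of Apoc3 was 0.966 (0.717 to 1.30), below 1. The limit itself takes out barcodes rich in enterocyte transcripts, a larger share of them in the Adipfl/flpVilli-CreT library. The cut therefore favours lower ratios, and the remaining barcodes cannot decide whether the background of T cells differed. Apoa4 was at 37.2 UMIs per 100 Apoa1 UMIs in the T cells of both libraries, above the 32.4 and 30.6 of all enterocytes and between the values of ranges 1 and 5.

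**Figure D4:**
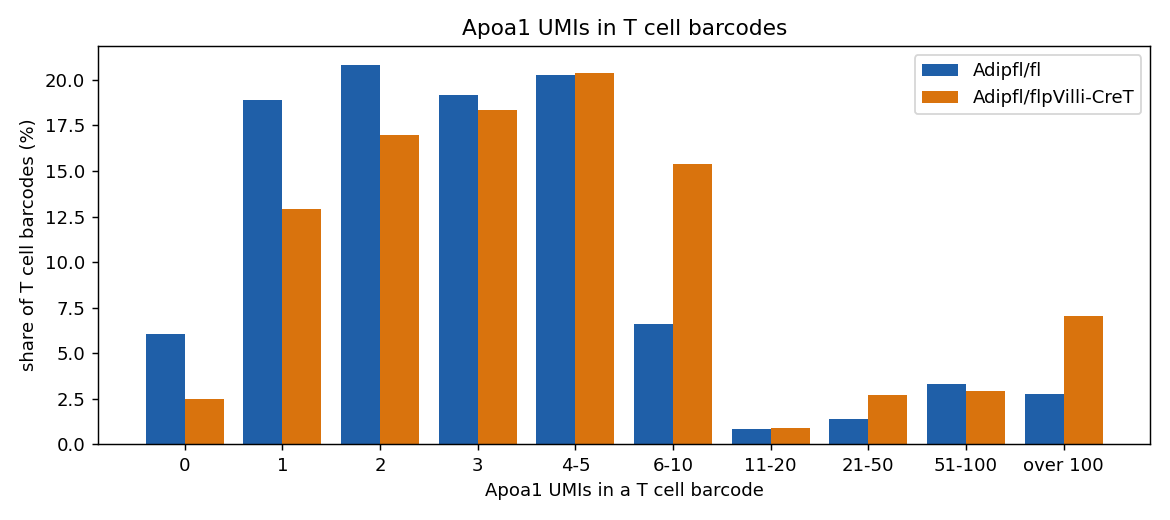
Share of T cell barcodes (%) by their number of Apoa1 UMIs in the Adipfl/fl (blue) and Adipfl/flpVilli-CreT (orange) libraries. Most barcodes hold a few UMIs in both libraries, and 7.40% and 12.7% hold more than 20.

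In crypt cells Apoa1 was at 589 CPM in the Adipfl/fl and 1207 CPM in the Adipfl/flpVilli-CreT library, a ratio of 2.05 (1.93 to 2.17). Apoa4 was at 188 and 379 CPM, a ratio of 2.01 (1.82 to 2.24). These were the 2 of 6 tested members at least 1.5-fold higher in the crypt cells of the Adipfl/flpVilli-CreT library, against 3.78% of 8529 genes, and none was 1.5-fold lower, against 2.12%. The same 2 genes were higher by 2.23-fold in the T cells of that library. Barcodes with more than 10 UMIs of the 8 other enterocyte transcripts made up 59 of the 82 and 166 of the 217 crypt barcodes, with median totals of 34534 and 26875 UMIs against 12808 and 8634 in the remaining 23 and 51. In those remaining barcodes, an alternative chosen after the data were seen, Apoa1 was at 504 and 508 CPM, a ratio of 1.01 (0.818 to 1.24), and Apoa4 at 199 and 151 CPM, a ratio of 0.760 (0.533 to 1.09). The higher levels in the Adipfl/flpVilli-CreT library were thus not seen in these few remaining barcodes. The barcodes left out held 90.0% and 95.8% of the crypt Apoa1 UMIs. The limit itself takes out barcodes rich in enterocyte transcripts, so the remaining ones cannot decide whether the crypt levels differed. Apob was at 125 and 181 CPM (1.45, 1.27 to 1.65), Apoc3 at 63.4 and 75.9 CPM (1.2, 0.990 to 1.45) and Sar1b at 139 and 146 CPM (1.05, 0.922 to 1.2). Mttp, at 240 and 192 CPM, was the only one of these with an interval below 1 (0.801, 0.722 to 0.889), while its T cell ratio was 2.30. Of the 7 other enterocyte transcripts tested in crypt cells, 2 were at least 1.5-fold higher, Anpep (1.98) and Lct (1.61), both named after their values were seen.

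A crypt barcode holds more RNA than a T cell barcode, with medians of 19432 and 20761 UMIs against 4582 and 4036, and the comparison of the classes depended on the scale. Per barcode, 6 of the 7 genes in the Adipfl/fl library and 7 in the Adipfl/flpVilli-CreT library had more UMIs in crypt cells than in T cells, but by CPM only Mttp and Sar1b did, in both libraries. In the Adipfl/flpVilli-CreT library Apoc2 counted with 2 UMIs in crypt cells and 1 in T cells. The share over all genes is not given here, and the difference in depth alone favours more UMIs per crypt barcode for any gene. Apoa1 had 16.7 UMIs per crypt barcode against 9.12 per T cell barcode in the Adipfl/fl library (1.83-fold, 1.72 to 1.95) and 30.7 against 18.9 in the Adipfl/flpVilli-CreT library (1.63-fold, 1.57 to 1.68). The crypt level of Apoa1 was thus below the T cell level by CPM and above it per barcode. Without the T cell barcodes over 10 UMIs of the other enterocyte transcripts the ratios per barcode were 5.74 (5.28 to 6.24) and 8.69 (8.19 to 9.22). That limit was put on the T cells alone, so all crypt barcodes were set against T cells low in such transcripts. With the limit on both classes Apoa1 was at 5.96 and 5.47 UMIs per crypt barcode, against 2.90 and 3.54 per T cell barcode. By CPM the crypt cells were then at 504 and 508, and the T cells at 633 and 898. Mttp had 6.79 UMIs per crypt barcode against 0.345 per T cell barcode (19.7-fold) and 4.89 against 0.738 (6.64-fold). Sar1b had 3.93 against 0.299 (13.1-fold) and 3.71 against 0.398 (9.32-fold). By CPM Sar1b was at 139 and 146 in crypt cells against 62.2 and 89.3 in T cells. Sar1b is expressed by many cell types, so its T cell level need not be background.

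At an equal depth of 2000 UMIs the share of barcodes with an Apoa1 UMI was 46.3% (exact binomial interval 35.3% to 57.7%) in crypt cells and 73.2% (68.2% to 77.8%) in T cells of the Adipfl/fl library, and 70.4% (63.8% to 76.4%) and 83.2% (79.2% to 86.8%) in the Adipfl/flpVilli-CreT library. The Apoa1 share in crypt cells was therefore below the share in all T cells in each library. The Mttp share was 41.5% (30.7% to 52.9%) in crypt cells against 11.4% (8.21% to 15.2%) in T cells of the Adipfl/fl library, and 28.2% (22.3% to 34.7%) against 13.7% (10.5% to 17.5%) in the Adipfl/flpVilli-CreT library. Thus the share with Mttp was above that of all T cells at this depth, and the share with Apoa1 was not. Thinning keeps a smaller part of a crypt barcode than of a T cell barcode, which lowers a fixed number of background UMIs more in the crypt. In cycling T cells, a separate and deeper class, the Apoa1 shares were 58.5% (48.5% to 68.0%) and 66.1% (56.5% to 74.8%). The crypt share was below that in the Adipfl/fl library and above it in the Adipfl/flpVilli-CreT library, with intervals that overlap in both. For Mttp the cycling T cell shares were 7.55% and 9.82%. Of the crypt Mttp UMIs, 95.5% and 96.8% lay in barcodes with more than 10 UMIs of the other enterocyte transcripts. The remaining 23 and 51 crypt barcodes held 25 and 34 Mttp UMIs (92.0 and 61.9 CPM). T cells under the same limit were at 28.6 and 37.1 CPM. Whether the crypt UMIs of Mttp came from crypt cells or from enterocyte RNA was not tested. For Sar1b the shares were 31.7% (21.9% to 42.9%) and 25% (19.4% to 31.3%) in crypt cells. They were 12.5% (9.22% to 16.5%) and 11.7% (8.68% to 15.3%) in T cells, with intervals below those of crypt cells. In cycling T cells they were 24.5% (16.7% to 33.8%) and 17.0% (10.5% to 25.2%), with intervals that overlap those of crypt cells. Thinning left out 0 and 1 crypt barcodes and 22 and 48 T cell barcodes. The genes that named the crypt cluster included 10 of 10 stem and 11 of 12 cycling markers, and a small cycling cluster with goblet and Paneth genes that stayed unnamed, 0.130% and 1.19% of the cells, was not counted as crypt.

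**Figure D5:**
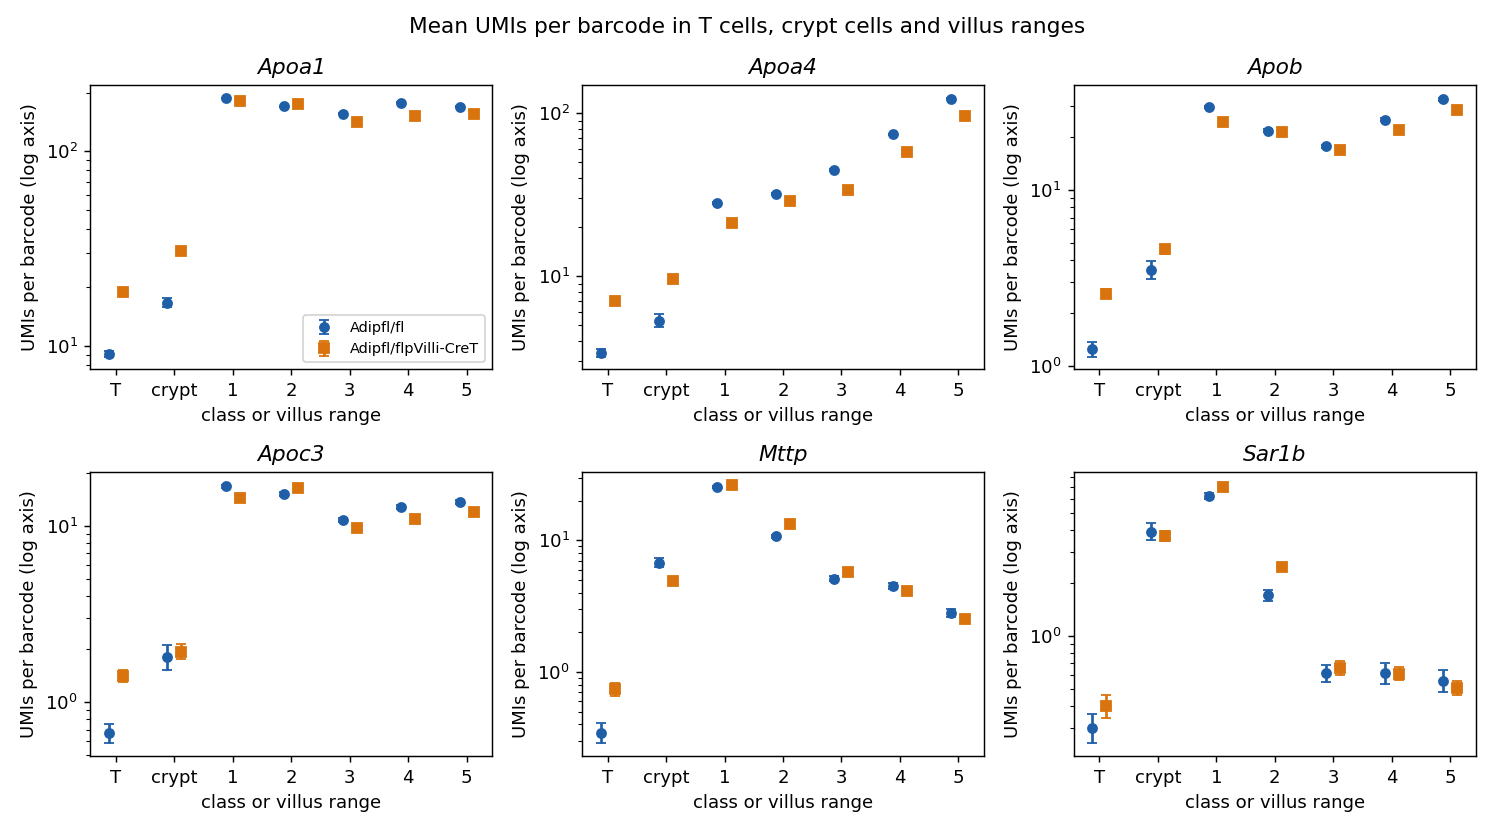
Mean UMIs per barcode (log axis) of 6 genes in T cells, crypt cells and villus ranges 1 to 5 of the Adipfl/fl (blue circles) and Adipfl/flpVilli-CreT (orange squares) libraries, with exact 95% Poisson intervals. All 6 genes are lowest in T cells among T cells, crypt cells and range 1. The crypt level of Mttp and Sar1b is 6.64 to 19.7 times that of T cells, while that of Apoa1 is 1.63 and 1.83 times that of T cells.

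At the bottom of the villus the 6 genes other than Apoc2, which had 1 and 2 UMIs in crypt cells, were higher by CPM than in the crypt. Range 1 was 15.8-fold (14.9 to 16.6) above crypt cells for Apoa1 in the Adipfl/fl library and 7.14-fold (6.97 to 7.32) in the Adipfl/flpVilli-CreT library. The ratio for Mttp was 5.22 (4.79 to 5.70) and 6.45 (6.07 to 6.87), and that for Sar1b 2.24 (1.99 to 2.52) and 2.30 (2.14 to 2.48). By CPM Apoa1 was lower in crypt cells than in T cells, at 589 against 1899 and 1207 against 4235. In cycling T cells Sar1b, which many cell types express, was at 1.03 and 1.15 UMIs per barcode (91.1 and 108 CPM), above the other T cells.

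The other genes of the pathway were taken from a list of 49 genes in 4 groups, of which 48 were in the tables. Between the libraries 37 were tested in enterocytes, and 0 were at least 1.5-fold higher or lower, against the 0.921% and 0.712% of all genes. In the group of COPII coat and export genes, which form the vesicle that carries the particle out of the endoplasmic reticulum, 11 of 12 were above 1 in the Adipfl/flpVilli-CreT library with a median log2 ratio of 0.19, as was Sar1b at 1.09-fold. In the group of lipidation and apoB mRNA editing genes 6 of 14 were above 1 (median log2 ratio -0.01), and among the transcription factors 2 of 11 (-0.05), beside 3516 of the 7165 genes tested in all. None of the 10 other apolipoprotein genes reached the filter in enterocytes. In T cells, beside the difference of the members there, 15 of 33 pathway genes tested were at least 1.5-fold higher in the Adipfl/flpVilli-CreT library and 0 lower, beside the 10.2% and 7.25% of all genes tested. Apoe, the macrophage apolipoprotein, named after its values were seen, had 61 and 81 UMIs over all enterocytes and 5434 and 2854 CPM in the other immune cells.

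Along the villus 8 of the pathway genes tested were at least 1.5-fold higher at the tip end in each library and 20 lower, of 37 genes tested in the Adipfl/fl and 38 in the Adipfl/flpVilli-CreT library, with a median log2 ratio of -0.64 and -0.63. Over all genes tested 15.8% and 15.9% were higher and 65.1% and 64.5% lower, with medians of -1.30 and -1.24. The 8 higher genes, named after their values were seen, were the same in both libraries. Creb3l3, a membrane-bound transcription factor known to act on apolipoprotein genes, was at 269 and 234 CPM in range 1 and 6.18-fold and 6.19-fold higher in range 5. Mia2, which takes part in the export of large cargo from the endoplasmic reticulum, was 3.42-fold and 3.51-fold higher. Apobec1, the enzyme that edits apoB mRNA to the short intestinal form, was 3.15-fold and 3.83-fold higher. The other 5 were Hnf4a (2.22 and 2.36), Sec16b (2.20 and 2.05), Sec24d (2.15 and 1.98), Plin3 (1.78 and 1.62) and Cideb (1.67 and 1.95). Among the 20 lower genes were 3 that were also chosen after their values were seen, Mogat2, which makes diacylglycerol from absorbed monoacylglycerol (0.196 in both libraries), Tm6sf2, a protein of lipoprotein lipidation (0.438 and 0.446), and the coat gene Sec13 (0.434 and 0.414). Genes of the COPII coat were thus found in both directions, with Sar1b among the lower.

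The genes whose level followed each member most closely were sought over the 24 points that the classes, ranges and libraries give, among 7180 genes of at least 50 CPM in some point, the 7 themselves left out. The points share libraries and background RNA, so Pearson's r of log2(CPM + 10) is a description. Creb3l3 was among the closest 3 for Apoa1 (0.989), Apoa4 (0.981) and Apob (0.988). Slc34a2, a phosphate transporter of the brush border, was the closest of these to Apoa1 (0.991) and Apoc3 (0.992), whose r with each other was 0.993, and Slc27a4, a fatty acid transport protein, was among the closest to Apob (0.986) and Apoc3 (0.988). Mttp was closest to St3gal4 (0.996), Ces2e (0.994) and Smim24 (0.988), and Sar1b to the mitochondrial metabolism genes Mdh2 (0.953) and Acadm (0.922) and to Pdcd6 (0.915). Apoa4 was also close to Plec (0.977) and Pcyt2 (0.970), the latter an enzyme of phosphatidylethanolamine synthesis. No gene was as close to Apoc2, for which the highest value was 0.877 (Ppm1j), followed by Smad7 (0.860) and Gm10680 (0.856), which overlaps Apoa4. Apoc2 itself stayed below the 50 CPM asked of the compared genes, at 21.1 CPM or less. The part of its low counts in these values was not tested. The rest of the closest 3 were Bst1 for Apoa1 (0.982), Slc6a8 for Apob (0.982) and Clca4b for Apoc3 (0.985).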

How the data were processed

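Single-cell 3′ RNA libraries of 2 samples, 1 per genotype, were analysed. The authors deposited, for each library, a matrix of raw counts (UMIs of each gene in each barcode) made with Cell Ranger (7.1.0 in the file header) on mm10, after bcl2fastq 5.0.1 (submitters' processing notes). The name files, whose content has no unit, hold gene IDs and barcodes, and 52081 of the 55357 gene IDs matched the GENCODE annotation of GRCm38 used for coordinates. The filter on barcodes was taken from the methods of the study. Kept barcodes were scaled to 10000 UMIs, log-transformed and clustered on 2000 variable genes, without the 7 genes and the pathway list, with 20 components at resolution 0.8 (Seurat 5.3.0, R 4.3.3), which gave 21 clusters. A cluster was named from markers at 2-fold or more with 10 UMIs, with the classes tried in a fixed order. At least 3 markers were needed for enterocytes, and more for each of the other classes. 1 cluster led by Fgf15 had none at 2-fold and was counted as enterocyte in a second pass, since 8 of 8 enterocyte markers were 2-fold above the clusters named otherwise. The crypt cluster also held all 5 fibroblast or muscle markers at 2-fold. Scrublet (scanpy 1.11.5) called 3 and 2 doublets, too few to count as having worked, and no doublets were removed except in an alternative. Counts were summed per class and library (pandas 2.3.3, scipy 1.17.1 and numpy 2.4.6 under Python 3.11.15, figures with matplotlib 3.10.9), given as CPM or per barcode, and compared as ratios with exact conditional 95% intervals. These and the binomial intervals cover counting error only. A count of 0 allows up to 3 counts of the total. No test was run, since cells are not replicates. A gene was called past the fold at 1.5-fold with at least 10 CPM in the higher group and 20 UMIs over both. The 7 genes are named throughout, pathway genes if past that fold between libraries in enterocytes (none was), and for each gene the 3 others with the closest pattern. Other pathway genes were named after their values were seen. Promoters came from RefSeq, with 6 of the 7 genes matched. The ratios and their intervals were tested on simulated Poisson counts with known folds, the same counting model that the intervals assume. Thinning was checked only for leaving 2000 UMIs per barcode. Clustering, cluster naming and the position score were not tested in this way. The members and gene lists were chosen with earlier results of these data known. Alternatives changed the limits on genes and mitochondrial UMIs, clustering settings, doublets, the CPM denominator, cell weights, depth, the position score and the fold and level thresholds.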

Additional observations from a re-analysis of the deposited data

How the results depend on the processing

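No paired analysis was possible because each genotype had 1 library and the labels give no replicate numbers, and for the same reason no library could be left out. Among the alternative values of the 6 counts 90 stayed within 1.5 times and 16 did not, and among those of single genes 492 moved by less than the counting error, 302 by more and 21 changed direction. The count of members higher in Adipfl/flpVilli-CreT enterocytes, 1, was 2 with the mitochondrial share taken from 13 protein-coding genes and 2 with no mitochondrial limit. The number of genes past the fold in enterocytes, 117, was 195 and 194 under those settings, 268 as a mean over cells, 386 with barcodes thinned to 2000 UMIs, 29 at 2-fold and 39 at 50 CPM. Members with more UMIs in crypt than in T cells, 6 and 7, numbered 2 and 3 as a mean over cells, 2 and 3 thinned, and 2 and 2 by CPM. Members at least 1.5-fold higher at the tip end, counted without the expression filter, were 5 and 5, and 1 and 2 per barcode. The share over all genes is not given here for these counts of members. Barcodes of range 5 were shallower than those of range 1, which lowers the count per barcode for any gene. Some values changed direction. Under the 10% mitochondrial limit with the ranges set anew the ratio of range 5 to range 1 was 1.77 and 1.56 for Mttp and 1.62 and 1.45 for Sar1b. With the range limits kept (chosen after the data were seen, 2 and 13 barcodes in range 5) it was 1.01 for Sar1b in Adipfl/flpVilli-CreT and 0 for Apoc2 in Adipfl/fl. In that setting Mttp, at 0.715 and 0.534, and Sar1b in Adipfl/fl, at 0.287, stayed below 1. By mean UMIs per barcode the ratio of range 5 to range 1 was 0.907 and 0.861 for Apoa1 and 0.816 and 0.831 for Apoc3. With thinned barcodes the Apob ratio between libraries in crypt cells was 0.929, and the crypt to T cell ratios were 0.549, 0.464, 0.885 and 0.733 in Adipfl/fl and 0.519, 0.364, 0.419 and 0.435 in Adipfl/flpVilli-CreT for Apoa1, Apoa4, Apob and Apoc3. Without T cell barcodes over 10 UMIs of other enterocyte transcripts the Apoc3 T cell ratio was 0.966, and without crypt barcodes over that limit the Apoa4 crypt ratio was 0.760. Thinning and the per barcode scale remove or keep depth by construction. The cause of the other shifts was not tested. Apoc2 had few UMIs in every class, and the part of depth or of reads shared with Gm44805 in this was not tested.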
